A study of Mus musculus with 33 samples.

Results

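Described here are 10 mouse genes of the integrated stress response and the unfolded protein response: Atf4, Atf3, Ddit3, Ddit4, Trib3, Chac1, Asns, Herpud1, Hspa5 and Xbp1. They were chosen by name, with earlier results of these data known, from the 37583 Ensembl gene IDs counted in every library. Each symbol matched 1 ID, and all 10 passed the filter on low counts that left 17326 genes for testing. The lowest count of any member in any library was 9 reads, for Chac1.

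Cells that run short of amino acids, or whose endoplasmic reticulum (ER) fills with misfolded protein, phosphorylate the translation factor eIF2alpha. Most protein synthesis then slows while the transcription factor ATF4 is translated more, and ATF4 switches on genes of amino acid supply together with regulators such as Ddit3, Trib3 and Chac1. A separate pair of ER sensors, ATF6 and IRE1, switches on the chaperones and disposal machinery of the ER, and IRE1 does so by splicing the Xbp1 transcript. Fibroblasts secrete much collagen, which is folded in the ER, whereas pluripotent cells are known for fast division and a high demand for amino acids.

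The samples trace the reprogramming of mouse embryonic fibroblasts (MEFs) of strain 129SV/Jae/C57BL6J into induced pluripotent stem (iPS) cells. There were 11 groups of 3 libraries: MEFs, and cells of d3, d6, d9, d12 and the iPS stage, each divided into an SSEA1- and an SSEA1+ fraction. SSEA1 is a surface sugar antigen that mouse cells acquire as they approach pluripotency. MEFs grew in MEF medium and all reprogramming cells in ES medium with dox and AA (the labels' abbreviations), so that medium, additives and reprogramming cannot be told apart in any comparison with MEFs. The labels name neither the reprogramming factors nor the transgene that dox acts on, nor do they say if the replicates came from different cultures or animals, so a p-value reflects the spread among these libraries alone, and that spread may be technical. Because RNA of whole fractions was counted, fewer cells with a transcript and less transcript per cell cannot be told apart.

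Reads counted in genes ran from 8.93 M to 41.69 M per library (median 23.15 M). Levels are given in CPM, the share of a library's counts on a per-M scale, after TMM scaling, in the order of replicates 1, 2 and 3. The summed level of 6 fibroblast markers was 78100 to 85300 CPM in MEFs and 36.2 to 229 CPM in iPS SSEA1+ cells, and that of 6 pluripotent cell markers was 4.59 to 7.61 CPM in MEFs and 3150 to 4730 CPM in iPS SSEA1+ cells. The iPS SSEA1- libraries were unlike each other in this respect: their pluripotent markers summed to 87, 246 and 2010 CPM. Macrophage and blood markers were at 3.95, 128 and 20.2 CPM in MEFs, and without that MEF replicate 2 the call of 1 member against MEFs was lost, that of Asns in iPS SSEA1+ cells. Within the SSEA1- fraction they were highest in replicate 2 at all 5 stages, at 36.7, 162, 215, 312 and 506 CPM from d3 to iPS, against 8.81 to 33.8 CPM in its replicates 1 and 3. Markers of keratinocytes, endoderm and trophoblast summed to at most 88, 79 and 140 CPM in any library, the last of these in iPS SSEA1+ cells.

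The promoters of several members carry letters that ATF4 or the ER stress factors are known to bind, and these stretches are shown so that the values of the members can be read beside them. Sequences are RefSeq's for build GRCm38.p6, while the counts were made on mm9. Windows ran from 250 bases before to 50 after the start of each gene, 300 bases in all, and all 10 members had 1. Searched on both strands, the ATF4-type letters TGATGNAA stood in 3.97% of 32851 such windows of all genes. The ER stress element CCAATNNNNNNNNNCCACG stood in 0.119% and its second form ATTGGNCCACG in 0.0365%. In capitals below are the matched letters, 5′ to 3′ on the gene's own strand, each with 15 bases on either side.
Asns, chr6:7693210-7693247, minus strand: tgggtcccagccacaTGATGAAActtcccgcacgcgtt
Chac1, chr2:119351034-119351071, plus strand: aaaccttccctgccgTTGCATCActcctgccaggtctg
Atf3, chr1:191183421-191183458, minus strand: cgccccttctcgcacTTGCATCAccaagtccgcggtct
Herpud1, chr8:94386302-94386402, plus strand: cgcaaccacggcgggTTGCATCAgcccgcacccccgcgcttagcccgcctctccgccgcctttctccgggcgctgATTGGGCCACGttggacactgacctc
Hspa5, chr2:34772010-34772058, plus strand: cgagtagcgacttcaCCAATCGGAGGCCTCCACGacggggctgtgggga

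TTGCATCA is TGATGNAA read on the other strand, and it began 193 bases before the start in Chac1, 110 in Atf3 and 112 in Herpud1. Trib3 held a further match, TTACATCA, from base 15 to base 22 after its start. Herpud1, whose product helps to dispose of misfolded ER protein, held both kinds of element. Hspa5, the ER chaperone BiP, held the full ER stress element from 65 to 47 bases before its start. The windows of Atf4, Ddit3, Ddit4 and Xbp1 held none of these letters, and no member held TGACGTGG (0.676% of windows) or TGACGTCA (1.79%). A match is a description of the sequence and not a measured binding site.

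Against MEFs the median member was lower at every stage. Trib3, Chac1, Asns, Ddit3, Atf4 and Herpud1 were called lower at d6 and d9 in both fractions. Herpud1, Hspa5, Xbp1, Trib3 and Chac1 were called lower in SSEA1+ cells than in MEFs from d6 through to the iPS stage. Between the d12 fractions Trib3, Chac1 and Asns were called higher in SSEA1+ cells and Herpud1 and Xbp1 lower. No other member, Atf4 and Ddit3 included, was called in that sort. Atf3 had no call against MEFs, and Ddit4 had 2, lower in d9 SSEA1- and higher in iPS SSEA1+ cells. A gene was called where the edgeR quasi-likelihood test over all 17326 genes gave a Benjamini-Hochberg adjusted p under 0.05 and at least a 2-fold change, and changes are log2 fold changes ± standard error. The 10 comparisons with MEFs share the same 3 MEF libraries, so their counts are not independent of each other.

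In SSEA1+ cells 5 of the 10 members were called lower than in MEFs at d3 (16.7% of all genes were called lower), 8 at d6 (16.6%), 8 at d9 (18%), 6 at d12 (20.2%) and 5 at the iPS stage (22.5%). Only the iPS SSEA1+ comparison had members called higher than MEFs, namely Ddit4 and Asns, in a comparison where 27.9% of all genes were called higher. In SSEA1- cells 5 were called lower at d3 (14.9% of all genes), 7 at d6 (12.4%), 7 at d9 (11.6%), 6 at d12 (11.1%) and 3 at the iPS stage (7.7%). That last count was 1 without iPS SSEA1- replicate 1 and 5 without its replicate 3. The median log2 change of the members in SSEA1+ cells was -1.13, -1.9, -1.76, -1.62 and -1.2 from d3 to iPS, while that of all genes was between 0.09 and 0.26. For SSEA1- cells the corresponding medians were -0.98, -1.36, -1.31, -1.31 and -0.7, against 0.07 to 0.19 for all genes. DESeq2 size factors moved the median of all genes by at most 0.14 and removal of a GC trend by at most 0.23, and no called member changed direction under either.

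**Figure D1:**
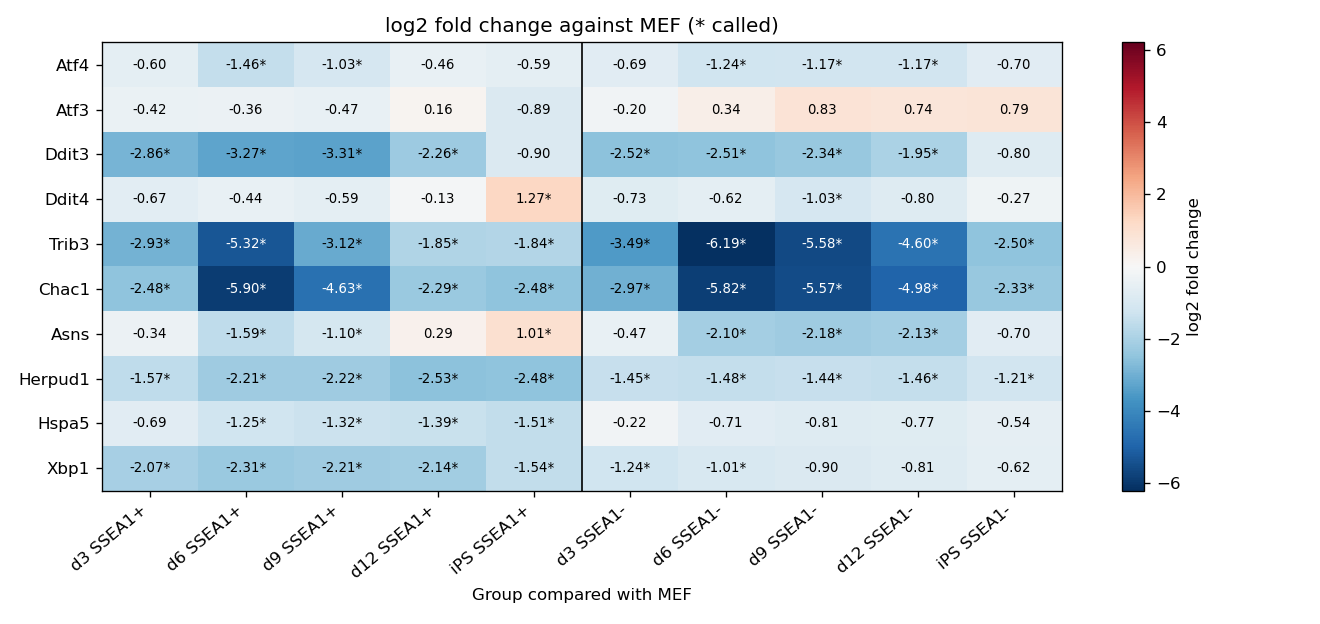
Log2 fold change of each of the 10 genes (rows) in each sorted group (columns) against MEFs; blue is lower and red higher than in MEFs, and an asterisk marks a called change. Trib3, Chac1 and Herpud1 carry an asterisk in all 10 columns, Atf3 in none, and Ddit4 and Asns are the genes called higher, both in iPS SSEA1+ cells.

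Atf4 encodes the transcription factor at the head of the set, which is controlled largely at translation, so that its transcript level need not follow its protein. Its level was 483, 335 and 354 CPM in MEFs. In SSEA1+ cells it was 264, 232 and 276 CPM at d3, 171, 126 and 127 at d6, 214, 177 and 183 at d9, 349, 278 and 222 at d12 and 308, 323 and 145 in iPS cells. In SSEA1- cells it was 214, 215 and 298 CPM at d3, 159, 168 and 168 at d6, 164, 206 and 151 at d9, 164, 194 and 164 at d12 and 236, 208 and 276 in iPS cells. The d12 SSEA1+ libraries overlapped with the MEFs, whereas the libraries of every other sorted group lay below all MEF libraries. At d3 and iPS the changes of both fractions were under 2-fold, from -0.7 to -0.59, with adjusted p from 0.017 to 0.033. Atf4 fell at d6 in SSEA1+ cells (-1.46 ± 0.23, adjusted p = 1.2e-05) and in SSEA1- cells (-1.24, adjusted p = 0.00014), and was also called lower at d9 in both fractions and at d12 in SSEA1- cells. Without all replicate 1 libraries its change was -0.94 in d9 SSEA1+ cells, -0.95 in d9 SSEA1- cells and -0.94 in d12 SSEA1- cells, under 2-fold, with adjusted p from 0.014 to 0.02, and without MEF replicate 1 alone it was -0.9 in d9 SSEA1+ cells. Its group means spanned 2.77-fold, the narrowest span of the 10, and all 10 neighbouring pairs in the order of groups overlapped.

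Ddit3 encodes CHOP, a transcription factor linked to death of cells under lasting ER stress. It stood at 39.5, 47 and 50.5 CPM in MEFs and had already reached 6.21, 5.77 and 6.91 CPM in d3 SSEA1+ cells and 6.61, 8.03 and 9.16 CPM in d3 SSEA1- cells. SSEA1+ cells then held 4.73, 5.55 and 3.85 CPM at d6, 4.35, 4.71 and 4.74 at d9, 10.8, 9.31 and 8.49 at d12 and 17.4, 45.5 and 10.6 in iPS cells. SSEA1- cells held 8.15, 8.77 and 7.05 CPM at d6, 8.9, 10.2 and 7.93 at d9, 10.4, 12.6 and 12.4 at d12 and 22.7, 20.6 and 35.4 in iPS cells. Every library from d3 to d12 lay below the lowest MEF library, and the iPS SSEA1+ libraries spread so widely that replicate 2 reached the MEF range. The change was -3.31 ± 0.34 in d9 SSEA1+ cells (adjusted p = 1.8e-08) and -2.34 in d9 SSEA1- cells (adjusted p = 4.8e-06). Called lower in 8 of the 10 comparisons with MEFs, Ddit3 missed the 2-fold minimum in both iPS fractions, at -0.9 and -0.8. Its exons overlap those of Mars on the opposite strand in GENCODE M21, and strand was ignored in counting as far as the names of the deposited files show. In that case reads of the overlap cannot be assigned to 1 of the 2 genes. The deposited counts include a class of ambiguous reads that belongs to no gene. Whether reads of this overlap went to that class, and so were lost to Ddit3, was not tested. Mars itself had a change of 0.049 in d9 SSEA1+ cells and of -0.975 in d9 SSEA1- cells.

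Atf3, a stress-induced repressor and partner of other bZIP factors, was the least abundant member in MEFs and the one with no called difference from them. It ranged from 2.59 CPM (d6 SSEA1+ replicate 3) to 28.6 CPM (iPS SSEA1- replicate 1) with a median of 8.58 over all 33 libraries. MEFs held 11.3, 10 and 6.4 CPM. Libraries of 1 group differed as much as groups did: d6 SSEA1- cells held 22.4, 8.73 and 4.21 CPM and d12 SSEA1+ cells 3.64, 10 and 17.5. In iPS cells the SSEA1- libraries held 28.6, 15.1 and 4.62 CPM and the SSEA1+ libraries 7.65, 4.57 and 2.88. Atf3 was called lower in iPS SSEA1+ than in iPS SSEA1- cells (-1.68 ± 0.63, adjusted p = 0.028), although these ranges overlap, and without iPS SSEA1- replicate 1 the difference was -1.05 with adjusted p = 0.19 (0.0057 to 0.19 over 15 alternatives). The immediate early genes, which are induced by handling and by serum, summed to 2460, 1320 and 1080 CPM in the same iPS SSEA1- libraries and to 653, 648 and 351 CPM in the iPS SSEA1+ libraries, and their part in the Atf3 difference was not tested.

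Trib3, a pseudokinase that ATF4 induces and that restrains ATF4 in turn, changed most of the 10. Levels were 127, 73.6 and 104 CPM in MEFs. The SSEA1+ libraries held 1.68, 14 and 24.5 CPM at d3, 1.94, 2.78 and 2.9 at d6, 8.08, 16.5 and 10.4 at d9, 39.8, 27.5 and 17.3 at d12 and 40, 30 and 14.8 in iPS cells. The SSEA1- libraries held 0.648, 8.03 and 18.3 CPM at d3, 0.811, 1.78 and 1.55 at d6, 1.03, 3.27 and 2.06 at d9, 2, 4.71 and 5.89 at d12 and 8.2, 15.1 and 30.4 in iPS cells. Every sorted library was below every MEF library, and the group mean was lowest at d6 in both fractions. The lowest single library was d3 SSEA1- replicate 1, at 0.648 CPM. All 3 SSEA1+ libraries exceeded all 3 SSEA1- libraries at d6, d9 and d12, although the d6 difference was not called. From the MEF mean to the lowest group mean, that of d6 SSEA1- cells, the ratio was 73.2-fold. Trib3 fell in d6 SSEA1- cells (-6.19 ± 0.93, adjusted p = 1.1e-05) and in d6 SSEA1+ cells (-5.32 ± 0.89, adjusted p = 2.5e-05), and it was called lower in all 10 comparisons with MEFs. The calls of d12 and iPS SSEA1+ cells (-1.85 and -1.84, adjusted p = 0.036 and 0.035) were each lost in 5 of 15 alternatives, where adjusted p over all alternatives ran from 0.002 to 0.12 and from 0.002 to 0.11: they were lost without a filter on low counts, without MEF replicate 1 or 3, and without replicate 2 or 3 of the SSEA1+ group.

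Chac1 breaks down glutathione and is among the most responsive ATF4 targets. It was at 62, 52 and 49 CPM in MEFs. The SSEA1+ values were 1.65, 9.88 and 17.7 CPM at d3, 0.448, 0.961 and 1.32 at d6, 1.37, 2.29 and 2.92 at d9, 17.9, 9.69 and 5.55 at d12 and 12.6, 11.3 and 5.35 in iPS cells. The SSEA1- values were 0.608, 7.29 and 12.7 CPM at d3, 0.85, 0.93 and 1.08 at d6, 1.25, 1.37 and 0.734 at d9, 1.48, 1.84 and 1.85 at d12 and 5.66, 6.48 and 20.3 in iPS cells. Like Trib3 it was far below the MEF range in all sorted libraries, and the d12 SSEA1+ libraries were separate from the d12 SSEA1- libraries. Chac1 fell in d6 SSEA1+ cells (-5.9 ± 0.87, adjusted p = 4.5e-06) and in d6 SSEA1- cells (-5.82, adjusted p = 8.6e-06), and it was called lower in all 10 comparisons. In d3 cells replicate 1 was low for both genes in both fractions, at 0.648 and 1.68 CPM of Trib3 where the other d3 libraries held 8.03 to 24.5 CPM. In iPS SSEA1- cells replicate 3, the library with 2010 CPM of pluripotent markers, held the most Trib3, Chac1 and Asns, and the part of that in the result was not tested. Without replicate 1 of that group the change from MEFs was -2.18 for Trib3 and -2.05 for Chac1, with adjusted p of 0.057 and 0.056, and without its replicate 2 that of Chac1 was -2.06 with adjusted p = 0.058. Over 15 alternatives adjusted p ran from 0.0023 to 0.057 for Trib3 and from 0.0027 to 0.058 for Chac1 in that group.

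**Figure D2:**
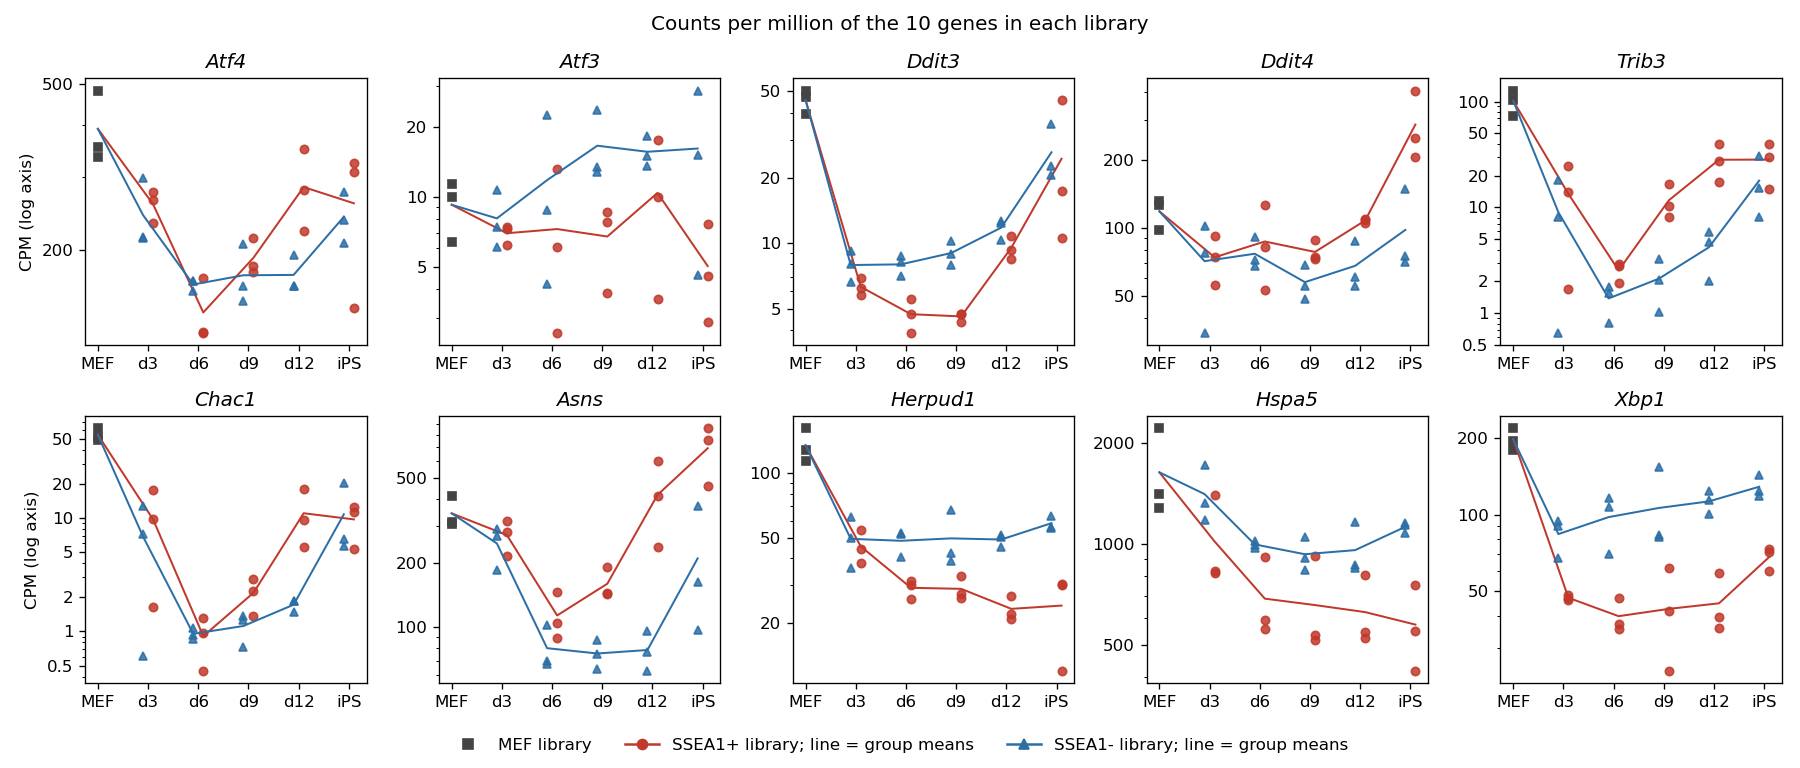
Level of each gene in every library in CPM on a log axis (1 panel per gene), with MEFs at the left and then d3, d6, d9, d12 and iPS; squares are MEF, circles SSEA1+ and triangles SSEA1- libraries, and lines join group means. Trib3, Chac1 and Asns dip at d6 and are higher again in SSEA1+ libraries at d12, whereas Herpud1, Hspa5 and Xbp1 stay low in SSEA1+ libraries.

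Asns encodes asparagine synthetase, an ATF4 target that makes asparagine when supply is short. Its MEF levels were 413, 311 and 304 CPM. SSEA1+ cells held 217, 281 and 315 CPM at d3, 147, 105 and 89.5 at d6, 192, 145 and 144 at d9, 602, 414 and 238 at d12 and 756, 462 and 858 in iPS cells. SSEA1- cells held 186, 268 and 289 CPM at d3, 103, 67.3 and 69.6 at d6, 87.5, 64.2 and 74.8 at d9, 76.8, 95.9 and 62.5 at d12 and 97.2, 164 and 371 in iPS cells. Both fractions were low at d6, where they overlapped, and they then separated, with no overlap at d9, d12 or the iPS stage. The SSEA1- group means were 80.1, 75.5 and 78.4 CPM at d6, d9 and d12. Against MEFs Asns fell in d12 SSEA1- cells (-2.13, adjusted p = 7e-05), whereas its value of 0.29 in d12 SSEA1+ cells was not called. In iPS SSEA1+ cells it was called higher than in MEFs at 1.01 ± 0.36 (adjusted p = 0.015), and all 3 libraries there lay above all 3 MEF libraries. That call sat at the 2-fold minimum and was lost in 10 of 15 alternatives, among them DESeq2 (0.97) and the fit without iPS SSEA1+ replicate 3 (0.77, adjusted p = 0.09), with 0.77 to 1.17 and adjusted p from 0.009 to 0.09 over all of them; leaving out MEF replicate 2 or 3 or iPS SSEA1+ replicate 1 also ended it.

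Ddit4, also called REDD1, restrains mTORC1 signalling and answers to ATF4 and to low oxygen. MEFs held 132, 97.6 and 126 CPM. Up to d12 its libraries ranged from 34.4 CPM (d3 SSEA1- replicate 1) to 126 CPM (d6 SSEA1+ replicate 1). In iPS cells the SSEA1+ libraries held 205, 404 and 249 CPM, above every other library of the series, and the SSEA1- libraries 75.2, 71.2 and 148. It was called higher in iPS SSEA1+ cells than in MEFs (1.27 ± 0.34, adjusted p = 0.0021), and without iPS SSEA1+ replicate 2 the change was 0.87 (adjusted p = 0.033; up to 0.033 over 15 alternatives), under 2-fold. Its lower level in d9 SSEA1- cells (-1.03, adjusted p = 0.018) was lost in 6 of 15 alternatives, with changes of -1.21 to -0.85 and adjusted p from 0.0044 to 0.07. These included the fits without d9 SSEA1- replicate 1 or 3. The same iPS SSEA1+ replicate 2 held the most Ddit3 of its group, and replicate 3 the least Atf4, Herpud1, Trib3 and Chac1.

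Hspa5 encodes BiP, the chief ER chaperone, and was the most abundant member in MEFs both in CPM and per length, at 445 ± 140 CPM per kb of longest GENCODE M21 transcript (SD, n = 3), where Atf4 had 193 ± 40 and Atf3 4.67 ± 1.3. In CPM it stood at 2210, 1410 and 1280 in MEFs. SSEA1+ cells held 1400, 818 and 829 CPM at d3, 910, 591 and 556 at d6, 919, 534 and 515 at d9, 807, 544 and 524 at d12 and 755, 417 and 549 in iPS cells. SSEA1- cells held 1720, 1180 and 1320 CPM at d3, 1020, 992 and 974 at d6, 904, 1050 and 837 at d9, 865, 1160 and 846 at d12 and 1140, 1150 and 1080 in iPS cells. All libraries from d6 on lay below the lowest MEF library, and in the SSEA1+ fraction replicate 1 was the highest at each stage, where it also had a smaller share of reads outside annotated genes than the other libraries of its group (4.42 to 9.34% over the stages, against 7.7 to 12.46% in replicates 2 and 3); the part of that difference in the level was not tested. Hspa5 was called lower than in MEFs in SSEA1+ cells at d6 (-1.25 ± 0.27, adjusted p = 0.00053), d9 (-1.32), d12 (-1.39) and iPS (-1.51), all 4 of which held without the replicate 1 libraries. In SSEA1- cells no comparison with MEFs reached 2-fold, with changes from -0.81 to -0.22. Adjusted p was 0.037, 0.02 and 0.025 at d6, d9 and d12, and 0.55 and 0.12 at d3 and iPS.

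Herpud1, a membrane protein of the ER disposal machinery, stood at 161, 114 and 128 CPM in MEFs. Its SSEA1+ levels were 38.1, 44.4 and 54 CPM at d3, 26, 30.1 and 31.6 at d6, 26.2, 33.1 and 27.4 at d9, 26.9, 20.9 and 22.2 at d12 and 30.1, 30.4 and 12 in iPS cells. Its SSEA1- levels were 36.1, 49.7 and 62.3 CPM at d3, 40.8, 52.4 and 51.8 at d6, 42.5, 67.3 and 39 at d9, 45, 51.4 and 50.6 at d12 and 56.3, 55.6 and 63.2 in iPS cells. No sorted library reached the MEF range, and from d6 on no SSEA1+ library reached the SSEA1- range. The changes against MEFs ran from -1.57 at d3 to -2.53 ± 0.27 at d12 in SSEA1+ cells (adjusted p = 2e-08 at d12), and from -1.21 at the iPS stage to -1.48 at d6 in SSEA1- cells. Every one of the 10 comparisons was called, and each held in all alternatives run.

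Xbp1 is the transcript that IRE1 splices, and counts per gene do not separate its spliced from its unspliced form. MEFs held 219, 196 and 180 CPM. SSEA1+ cells held 46.1, 48.4 and 47 CPM at d3, 35.7, 46.9 and 37.2 at d6, 42, 61.7 and 24.3 at d9, 58.9, 35.9 and 39.8 at d12 and 71.2, 59.9 and 73.7 in iPS cells. SSEA1- cells held 67.6, 94.2 and 90.3 CPM at d3, 69.9, 117 and 107 at d6, 83.4, 154 and 81.9 at d9, 101, 124 and 114 at d12 and 124, 144 and 119 in iPS cells. Both fractions lay below all MEF libraries, and the SSEA1+ libraries lay below the SSEA1- libraries at each of the 5 stages. Xbp1 fell in d6 SSEA1+ cells (-2.31, adjusted p = 2.2e-07) and in iPS SSEA1+ cells (-1.54, adjusted p = 2.1e-05). In SSEA1- cells it fell at d3 (-1.24) and d6 (-1.01) and was -0.9, -0.81 and -0.62 later on, under 2-fold. The d6 call was lost in 3 of 15 alternatives, at -0.82 without d6 SSEA1- replicate 1 and -0.75 (adjusted p = 0.084, against a lowest of 0.00018) without all replicate 1 libraries.

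The sort compares SSEA1+ with SSEA1- cells of 1 stage, with medium held equal, and the day as well from d3 to d12. The labels give no day for the iPS stage. At d3 no member differed by edgeR's call, where 6.67% of all genes did; 1 member had an unadjusted p under 0.05 and DESeq2 called 0. That member was Xbp1, at -0.83 (adjusted p = 0.039), short of 2-fold. Same-numbered d3 libraries of the fractions deviated together, with r of 0.47, 0.35 and 0.42. The d3 test did not use that pairing, so small shifts within pairs may be missed. At d6 Xbp1 was the 1 member called, lower in SSEA1+ cells (-1.3 ± 0.27, adjusted p = 0.00093; 10.1% of all genes were called lower). At d9 Trib3 (2.46 ± 0.8, adjusted p = 0.017) and Asns (1.08, adjusted p = 0.019) were called higher in SSEA1+ cells, among 11.5% of all genes, and Xbp1 (-1.32, adjusted p = 0.00046) lower, among 13.7%.

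At d12 5 members were called different between the fractions. Trib3 was 6.72-fold higher in SSEA1+ cells (2.75 ± 0.79, adjusted p = 0.0054), Chac1 6.42-fold (2.68 ± 0.74, adjusted p = 0.0041) and Asns 5.33-fold (2.41 ± 0.37, adjusted p = 1.3e-05), while 18% of all genes were called higher. Atf4 itself was 0.7 higher (adjusted p = 0.013), under 2-fold, with no overlap of the libraries. Herpud1 (-1.07, adjusted p = 0.0013) and Xbp1 (-1.33, adjusted p = 0.00023) were called lower in SSEA1+ cells, also among 18% of all genes. At the iPS stage Asns (1.72 ± 0.36, adjusted p = 0.00039) and Ddit4 (1.54 ± 0.34, adjusted p = 6e-04) were called higher, among 16%, and Herpud1 (-1.27, adjusted p = 0.00026) and Atf3 lower, among 21.3%. Hspa5 was -0.97 and Xbp1 -0.92, short of 2-fold, though with a replicate block Hspa5 just passed that minimum and was called. Trib3 and Chac1 had no called difference there, at 0.66 ± 0.74 and -0.16 ± 0.69. The d12 SSEA1+ libraries differed among themselves: replicate 1, with 602 CPM of Asns, 39.8 of Trib3 and 17.9 of Chac1, had 3040 CPM of pluripotent markers, while replicate 3, with 238, 17.3 and 5.55 CPM, had 1650, and the part of that in the result was not tested.

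Single libraries bore on the d9 calls. Trib3 lost its call without d9 SSEA1- replicate 1 (2.11, adjusted p = 0.083) and without d9 SSEA1+ replicate 2 (2.09, adjusted p = 0.061), with adjusted p from 0.0032 to 0.083 over 15 alternatives. Asns lost it without d9 SSEA1- replicate 2 (0.96, adjusted p = 0.084), without d9 SSEA1- replicate 3 (1.02) and without d9 SSEA1+ replicate 1 (0.94), with adjusted p from 0.005 to 0.084. Xbp1 was -0.97 without d9 SSEA1- replicate 2 (adjusted p = 0.0076; 4.1e-06 to 0.021 over 15 alternatives), the library with 154 CPM of Xbp1 and 215 CPM of macrophage and blood markers; the part of those cells in the result was not tested.

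**Figure D3:**
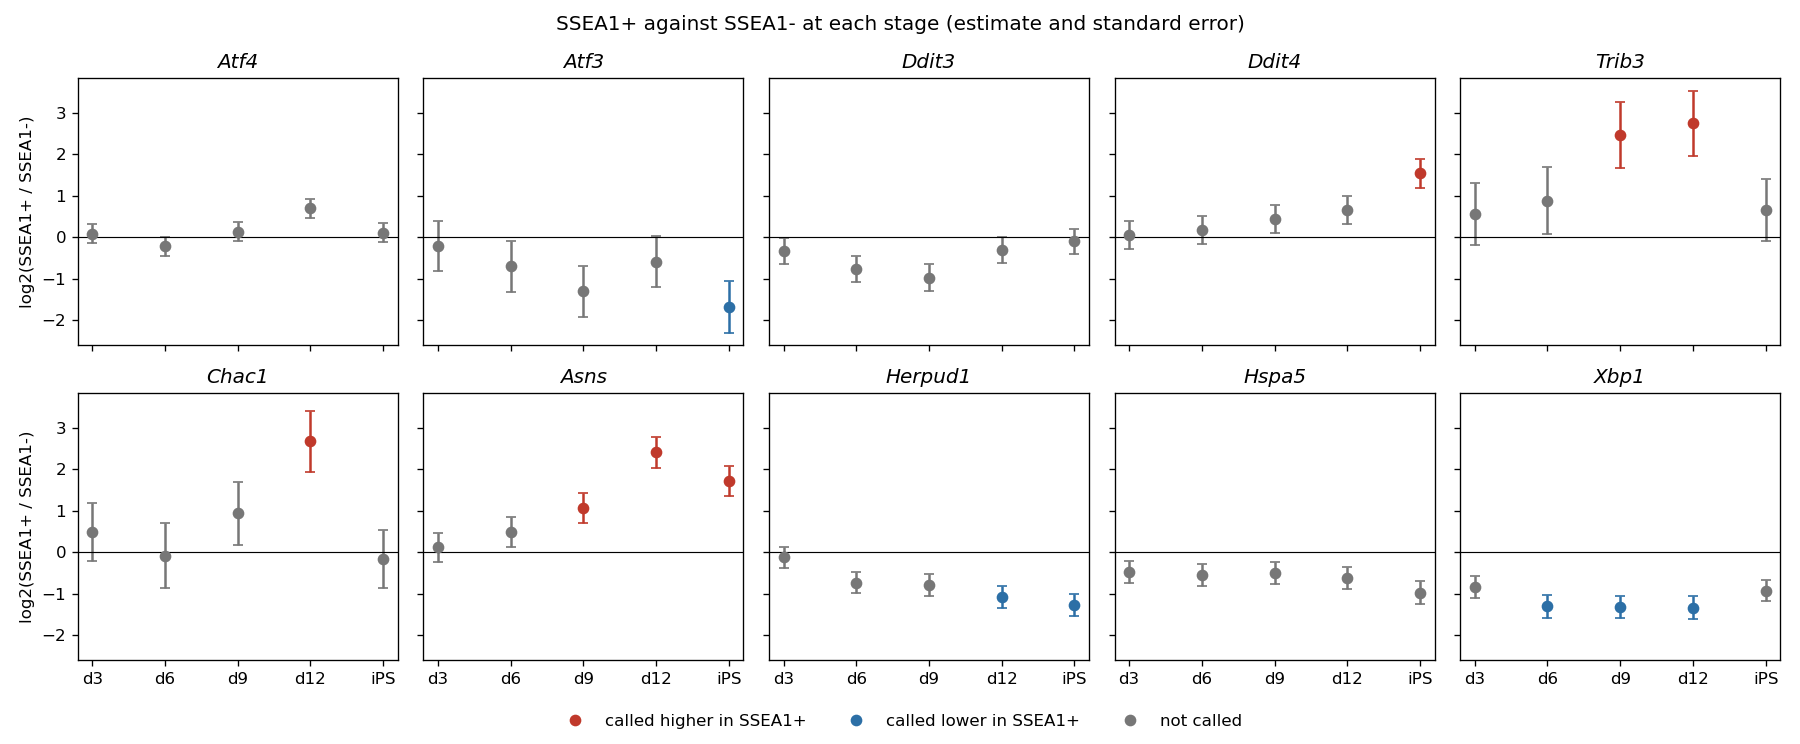
Log2 ratio of SSEA1+ to SSEA1- cells at each stage with its standard error, 1 panel per gene; red points were called higher in SSEA1+ cells, blue lower, and grey were not called. Asns climbs to 2.41 at d12, Trib3 and Chac1 reach 2.75 and 2.68 there, and Herpud1, Hspa5 and Xbp1 lie below 0 at every stage.

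Whether the difference between fractions itself changed with the stage was tested with an F test of all 5 stages, which called 18.7% of all genes at adjusted p under 0.05. Of the members Asns was called (F = 6.59, adjusted p = 0.0091), its difference running through 0.13, 0.5, 1.08, 2.41 and 1.72 from d3 to iPS. Without all replicate 1 libraries its adjusted p was 0.089, the highest of its alternatives, the lowest being 0.00028 with DESeq2. For Ddit4 the test gave adjusted p = 0.12, for Herpud1 0.14, for Chac1 0.19, for Atf4 0.25, for Trib3 0.31 and for Hspa5 0.85, so that a change of their sort difference with stage was not shown. Ddit4 did pass with DESeq2 (0.048), with the GC trend removed (0.012), without d3 SSEA1- replicate 1 (0.034) and without iPS SSEA1- replicate 3 (0.025).

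Between successive stages the SSEA1+ fraction lost Chac1 (-3.41, adjusted p = 0.011) and Asns (-1.25, adjusted p = 0.039) from d3 to d6, where 1.25% of all genes were called lower. From d6 to d9 no member was called, with 1.08% of all genes called in either direction, and DESeq2 called 0. Trib3 was the 1 member with an unadjusted p under 0.05 (2.19, adjusted p = 0.26), and its libraries did not overlap. Libraries with the same replicate number deviated together in this step, with r of 0.63, 0.55 and 0.39. The test did not use that pairing, so small shifts within pairs may be missed. From d9 to d12 Ddit3 (1.05, adjusted p = 0.032), Chac1 (2.34, adjusted p = 0.038) and Asns (1.38, adjusted p = 0.014) rose, where 5.37% of all genes did. From d12 to iPS Ddit3 (1.36, adjusted p = 0.0048, with overlapping libraries) and Ddit4 (1.41, adjusted p = 0.0066) rose, among 3.74% of all genes. These calls rested on few libraries. The step to d6 had 0 called members without d3 SSEA1+ replicate 3 and 1 without d3 SSEA1+ replicate 1 or 2 or d6 SSEA1+ replicate 2 or 3. The step to d12 had 0 without d9 SSEA1+ replicate 2 or d12 SSEA1+ replicate 1, and 1 without d9 SSEA1+ replicate 1 or 3 or d12 SSEA1+ replicate 2. The step to iPS had 0 without iPS SSEA1+ replicate 2.

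In the SSEA1- fraction Trib3 (-2.7, adjusted p = 0.037), Chac1 (-2.85, adjusted p = 0.023) and Asns (-1.63, adjusted p = 0.0086) fell from d3 to d6, where 1.24% of all genes did, the libraries of Trib3 and Chac1 overlapping. No member was called from d6 to d9, where 0% of all genes were, or from d9 to d12, where 0.0693% were. By unadjusted p under 0.05 and by DESeq2 the count was 0 in both steps. Libraries with the same replicate number deviated together here, with r of 0.8, 0.78 and 0.42 from d6 to d9 and 0.65, 0.42 and 0.26 from d9 to d12. These tests did not use that pairing, so small shifts within pairs may be missed. A replicate block shared by all groups also gave 0 in both steps. From d12 to iPS Ddit3 (1.15, adjusted p = 0.022), Chac1 (2.65, adjusted p = 0.025) and Asns (1.43, adjusted p = 0.014) rose, among 4.72% of all genes. Those rises were called in no member without iPS SSEA1- replicate 3, the library rich in pluripotent markers, nor without d12 SSEA1- replicate 1 or 3, and in 1 without d12 SSEA1- replicate 2. The step to d6 had 0 called members without d6 SSEA1- replicate 2 and 1 without d3 SSEA1- replicate 3 or d6 SSEA1- replicate 3.

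The wider ATF4 programme was followed with fixed lists of other genes. Of 13 tRNA synthetase and tRNA export genes, which charge and move tRNA, 9 were called lower than in MEFs in d6 SSEA1- cells, 11 at d9 and 12 at d12, with medians of -1.35, -1.43 and -1.44; of all genes 12.4%, 11.6% and 11.1% were called lower in these comparisons. In SSEA1+ cells the counts were 5 at d6, 3 at d9 and 0 at d12, and the medians -0.89, -0.59 and -0.21, where 16.6%, 18% and 20.2% of all genes were called lower. Between the d12 fractions 10 of the 13 were called higher in SSEA1+ cells and 0 lower (18% of all genes each way), with a median of 1.25 where that of all genes was 0.06. Aars, the alanine enzyme, had means of 636 ± 90 CPM in MEFs, 113 ± 14 in d12 SSEA1- cells and 416 ± 140 in d12 SSEA1+ cells (SD, n = 3), and it was 1.89 higher in the latter.

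Of 12 genes of amino acid synthesis 10 were called lower and 2 higher than in MEFs in d6 cells of either fraction. Of all genes 16.6% were called lower and 16.9% higher in d6 SSEA1+ cells, and 12.4% lower and 15.8% higher in d6 SSEA1- cells. At d12 the number called lower was 10 in SSEA1- cells (11.1% of all genes) and 4 in SSEA1+ cells (20.2%), and 8 were called higher in d12 SSEA1+ than in d12 SSEA1- cells, 0 lower. Mthfd2, a mitochondrial enzyme of folate metabolism, had 166 ± 40 CPM in MEFs, 13 ± 3.8 in d12 SSEA1- cells and 81.8 ± 42 in d12 SSEA1+ cells, a difference of 2.65 between the fractions. Aldh1l2, another enzyme of that pathway, did not share this: it went from 367 ± 16 CPM in MEFs to 7.78 ± 0.49 and 9.79 ± 3.8 in the d12 fractions, whose difference of 0.33 was not called. Cbs, which makes cystathionine, rose instead, from 0.577 ± 0.4 CPM in MEFs to 38.4 ± 9.9 in d12 SSEA1+ cells. Among 9 amino acid transporters 6 were called lower and 2 higher than in MEFs in d12 SSEA1+ cells, against 20.2% and 26.5% of all genes. Between the d12 fractions 1 was called each way: Slc7a5, a carrier of large neutral amino acids, was 2.67 higher in SSEA1+ cells, and Slc7a11, the cystine carrier, was lower (log2 -1.8), from means of 245 and 36.2 CPM in SSEA1+ cells and 38.3 and 126 in SSEA1- cells.

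Of 15 ATF4 partners and other stress effectors 10 were called lower and 1 higher than in MEFs in SSEA1+ cells at each of d6, d9 and d12, where 16.6%, 18% and 20.2% of all genes were called lower and 16.9%, 20.6% and 26.5% higher. In SSEA1- cells 8 were called lower at these stages, against 12.4%, 11.6% and 11.1%. Stc2, a secreted glycoprotein, went from 110 ± 58 CPM in MEFs to 6.08 ± 0.48 in d6 SSEA1+ cells, and Vldlr, a lipoprotein receptor, from 119 ± 41 to 0.94 ± 0.84. The 7 kinases, phosphatase subunits and target of eIF2alpha phosphorylation had no call in any SSEA1+ comparison with MEFs, where their medians lay between -0.17 and 0.18. Of all genes 16.7%, 16.6%, 18%, 20.2% and 22.5% were called lower there from d3 to iPS. From d6 to iPS 16.9%, 20.6%, 26.5% and 27.9% were called higher. In d3 SSEA1- cells 1 of the 7 was called lower, where 14.9% of all genes were. There 1 was also called higher, a count for which no share over all genes is given here. At the later SSEA1- stages 0 were called, where 12.4%, 11.6%, 11.1% and 7.7% of all genes were called lower from d6 to iPS. Called higher were 15.8% in d6 and 17% in d12 SSEA1- cells.

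On the ER side, 10 of 16 genes of the IRE1 and XBP1 arm were called lower than in MEFs in SSEA1+ cells at d6 and at d9, 12 at d12 and 11 at the iPS stage, and in SSEA1- cells the counts were 6, 7, 8 and 4. Of all genes 16.6%, 18%, 20.2% and 22.5% were called lower in these SSEA1+ comparisons and 12.4%, 11.6%, 11.1% and 7.7% in the SSEA1- comparisons, so the shares over all genes differed between the fractions as well. Sec24d, a coat protein of ER export vesicles, fell from 332 ± 16 CPM in MEFs to 54.7 ± 8.3 in d12 SSEA1- and 16.5 ± 6 in d12 SSEA1+ cells, and the fractions differed (-1.73). Derl3, a disposal protein, went the other way, from 0.31 ± 0.34 CPM to 7.13 ± 1.4 in d12 SSEA1+ cells. Of 16 chaperones and regulators of the ATF6 arm 7 were called lower in SSEA1+ and 6 in SSEA1- cells at d6 (16.6% and 12.4% of all genes), with Creb3l1, a transcription factor of collagen-secreting cells, at 418 ± 39 CPM in MEFs and 4.36 ± 2.3 in d6 SSEA1+ cells. Fibroblast markers moved with these genes, from 78100 to 85300 CPM in MEFs to 4690 to 9210 in d6 SSEA1- and 421 to 937 in d6 SSEA1+ cells, and their part in the result was not tested.

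Of 7 mitochondrial chaperones and proteases 3 were called higher than in MEFs in d12 SSEA1+ cells and 0 lower, where 26.5% of all genes were called higher. In d12 SSEA1- cells 0 were called higher and 2 lower (17% and 11.1% of all genes), and 4 were called higher in SSEA1+ than in SSEA1- cells of d12 (18%). Hspd1, the mitochondrial chaperonin, had 377 ± 120 CPM in MEFs, 822 ± 160 in d12 SSEA1+ and 380 ± 38 in d12 SSEA1- cells. Of 10 cytosolic heat shock genes 2 were called higher and 4 lower in d12 SSEA1+ cells, against 26.5% and 20.2% of all genes, with a median of -0.18. Hsp90aa1, an abundant cytosolic chaperone, rose from 491 ± 140 to 2070 ± 450 CPM there while Bag3, a co-chaperone, fell from 160 ± 13 to 43.2 ± 12.

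**Figure D4:**
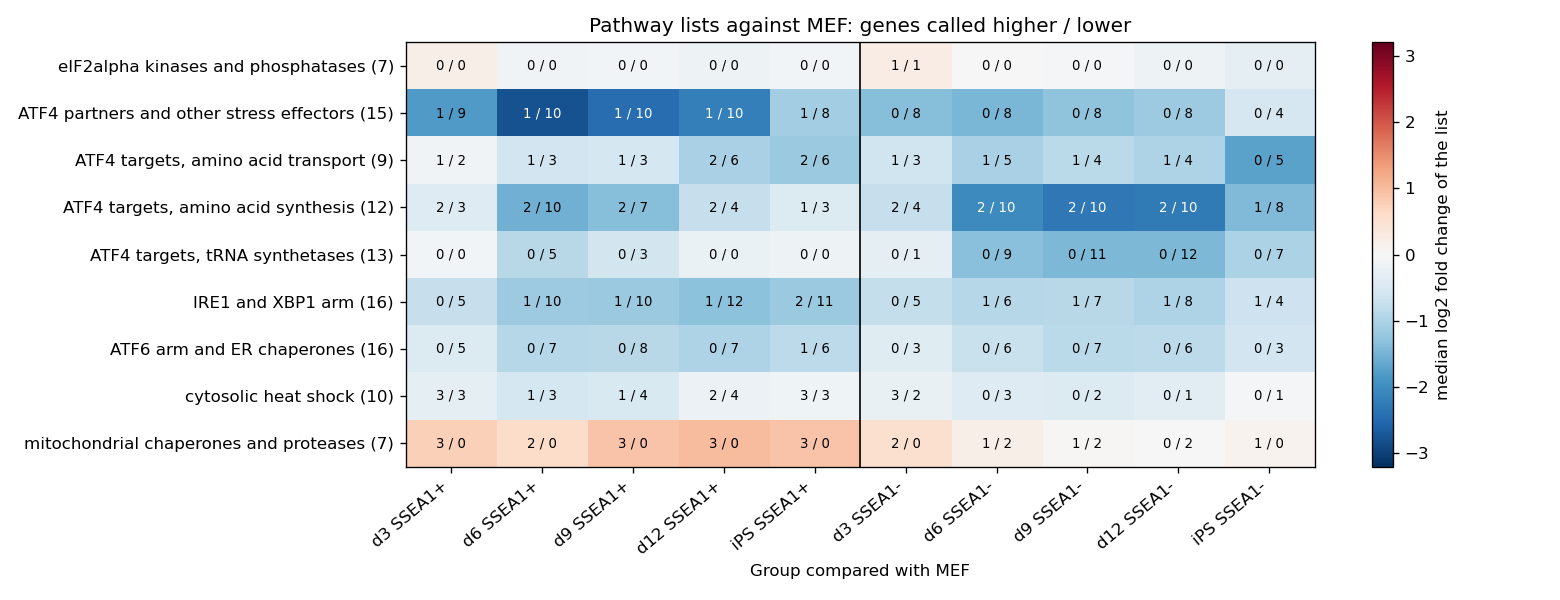
Pathway lists (rows, with the number of genes tested) against MEFs in each sorted group (columns); colour is the list's median log2 fold change and each cell gives the number of genes called higher / lower. The tRNA synthetase row reads 0 / 12 in d12 SSEA1- cells and 0 / 0 in d12 SSEA1+ cells, whereas the IRE1 and XBP1 row reads 1 / 8 and 1 / 12.

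Over the 33 libraries the members' log2(CPM + 1) values are compared pair by pair, as a description with no test since libraries share groups and depth. Trib3 and Chac1 had a Pearson r of 0.94, and of 0.93 after each group's mean was removed, so they also varied together among replicates. Atf4 followed Chac1 at 0.85 and Trib3 at 0.79, and within groups at 0.43 and 0.42. Herpud1 and Hspa5 had 0.74 over the libraries and -0.03 within groups, while Trib3 and Hspa5 had 0.02 and -0.29. Herpud1 had a higher r within groups than over the libraries with Atf4 (0.76 and 0.47), Trib3 (0.7 and 0.31) and Chac1 (0.64 and 0.48). With Ddit3 the values were nearly equal (0.6 and 0.59). Other members did not share this closeness: within groups and over the libraries Asns had -0.02 and -0.15, Ddit4 0.35 and -0.15, and Atf3 -0.18 and 0.23. Ddit3 and Xbp1 had 0.7 over the libraries and -0.01 within groups. Of 12413 other genes with at least 5 CPM in their highest group, those nearest in pattern to Atf4 were Stc2 (r = 0.841), Atg4b (0.823), Adam19 (0.804), Mthfd2 (0.795) and Jmjd6 (0.784). Nearest to Trib3 were Gpt2 (0.882), Kif21b (0.881), Slc16a3 (0.871), Adm2 (0.869) and Dym (0.865). For Hspa5 they were Serp1 (0.94), Dnajb11 (0.939), Pdia3 (0.937), Ssr3 (0.927) and Arf4 (0.926).

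In the order of the group means, MEFs ranked highest for 7 of the members, d9 SSEA1- cells for Atf3, and iPS SSEA1+ cells for Ddit4 and Asns. Neighbouring groups in that order mostly overlapped, in 8 to 10 of the 10 neighbouring pairs of each gene. The pairs that did not overlap were MEF above iPS SSEA1- cells for Ddit3, Herpud1 and Xbp1, MEF above iPS SSEA1+ cells for Trib3, MEF above d12 SSEA1+ cells for Chac1, iPS SSEA1+ cells above MEF for Ddit4, and a few lower in the order, such as d3 above d6 SSEA1+ cells for Ddit3 and Herpud1. Per kb of transcript the iPS SSEA1+ order was led by Asns at 343 CPM per kb, then Ddit4 at 163, Hspa5 at 156 and Atf4 at 128, where MEFs had Hspa5 highest, followed by Atf4 and then Asns at 170.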

How the data were processed

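Poly-A selected RNA of 33 libraries was sequenced, and the authors deposited 1 table of read counts per Ensembl gene for each library, without normalization. Per the submitters' processing notes STAR 2.3.0, Picard 1.100, HTSeq 0.6.0 and the mm9 build were used, with roles not stated. The gene annotation that was used in counting is not stated in these notes or labels. Closing lines of each table that name no gene were left out; reads in no feature came to 4.42 to 15.51% of reads that were counted, ambiguous or in no feature. Symbols, transcript lengths and GC content came from GENCODE M21 (32860 of 37583 IDs named), promoters from RefSeq.

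Counts were fitted with edgeR 4.0.16 (quasi-likelihood, robust, TMM scaling, low-count filter of filterByExpr) in R 4.3.3, with all 11 groups in 1 fit (22 residual degrees of freedom) and Benjamini-Hochberg adjustment over 17326 genes. Called means adjusted p under 0.05 and at least 2-fold, or adjusted p alone for the stage interaction. The procedure was run on counts simulated from the MEF means, with changes set in some genes of d3 SSEA1+ cells. That simulation held no replicate pairing and no broad shift between groups, so it cannot show how these are handled. A count of 3 corresponds to 0.072 to 0.336 CPM, and such limits cover counting error only. Replicates differed by more than counting error in every pair (chi-square over its degrees of freedom at least 13.1).

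Alternatives were DESeq2 1.42.0, its size factors, no filter, removal of a GC trend, a replicate block, only the groups compared, no fold minimum and leaving out libraries. For a gene already called, the alternative with no fold minimum cannot end the call. Leaving out all replicate 1 libraries was chosen after seeing the data. Same-numbered libraries deviated together, with r over 0.1 in every pair, in 14 of 23 comparisons. Examples are 0.35 to 0.47 in the d3 sort and 0.42 to 0.8 between d6 and d9 SSEA1- cells. This pairing comes from the numbers in the labels. Members and lists were chosen with earlier results of these data known. All 10 members were named, up to 4 genes of each list with the smallest p in the test of all groups, the 5 genes nearest in pattern to Atf4, Trib3 and Hspa5, and Mars for its overlap with Ddit3.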

Additional observations from a re-analysis of the deposited data

Results flagged for a closer look

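For Asns the difference between SSEA1+ and SSEA1- cells was not the same at all stages, by a test of that difference itself (edgeR quasi-likelihood F test of the sort by stage terms, adjusted p = 0.0091). The log2 difference was 0.13, 0.5, 1.08, 2.41 and 1.72 at d3, d6, d9, d12 and iPS. Among the 10 genes it was the 1 that passed this test, which 18.7% of all genes passed. SSEA1+ libraries were separate from SSEA1- libraries at d9, d12 and iPS and overlapped with them at d3 and d6. Leaving out 1 library at a time gave adjusted p from 0.00046 to 0.029, and leaving out all replicate 1 libraries gave 0.089. Single libraries were not examined for standing apart by a formal test, since every group had 3.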

How the results depend on the processing

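Among 75 called pairs of a member and a comparison with MEFs or between fractions, 60 kept direction and call in all 15 alternatives each. Over 1125 such values 49 lost the call and 0 reversed. Among the 15 alternatives, that with no fold minimum keeps the main fit. No called pair could lose its call or reverse in it. The count of called members moved by over 1.5 times as follows. With adjusted p alone it was 5 instead of 3 for iPS SSEA1- against MEF, 1 instead of 0 for the d3 sort, 2 instead of 1 for the d6 sort and 5 instead of 3 for the d9 sort. With only the groups compared it was 5 for the d9 sort, 1 instead of 2 for d6 against d3 SSEA1+, 1 instead of 2 for iPS against d12 SSEA1+, 1 instead of 3 for d6 against d3 SSEA1- and 0 instead of 3 for iPS against d12 SSEA1-. Without a filter it was 1 for d6 against d3 SSEA1+ and 1 instead of 3 for d12 against d9 SSEA1+. With the GC trend removed, with or without a replicate block, it was 4 for d6 against d3 SSEA1+ and 2 instead of 1 for the stage interaction. The likelihood ratio test of DESeq2 gave 2 for the interaction. Without all replicate 1 libraries it was 0 for d12 against d9 SSEA1+ and 0 for the interaction. The cause of these moves was not tested.

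Leaving out 1 library at a time gave 1 to 5 members for iPS SSEA1- against MEF and 1 to 4 for the d9 sort. It gave 0 to 2 for d6 against d3 SSEA1+, 0 to 3 for d12 against d9 SSEA1+ and 0 to 2 for iPS against d12 SSEA1+. It gave 0 to 3 for d6 against d3 SSEA1-, 0 to 3 for iPS against d12 SSEA1- and 1 to 2 for the interaction. A replicate block added Hspa5 to the iPS sort (5 members instead of 4, with Hspa5 at -1.01 and adjusted p = 0.00021 where it was -0.97 without the block) and changed no other count of called members. For the low-count genes Trib3 and Chac1, which reached 16 and 9 reads in 1 library, depth limits the precision of levels near their low point.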
